A study of Mus musculus with 9 samples.

Results

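The 10 genes described here are the FOS family members Fos, Fosb, Fosl1 and Fosl2, the JUN family members Jun, Junb and Jund, and the EGR family members Egr1, Egr2 and Egr3. They were selected by symbol, and all 10 were found among the 22322 genes of the expression table. RNA was sequenced from mouse cultures labelled as retinal ganglion cells (RGCs) of wild-type (WT) genotype, with 3 wells in each of 3 groups. Normal RGCs were kept in complete medium. Aging RGCs were treated with D-galactose, a sugar used to induce senescence in culture. The group named aging RGCs + USCs medium received D-galactose and then conditioned medium from human urine-derived stem cells (USCs), with the stem cells removed. The RGCs were a purchased, subcultured stock, and nothing in the sources says that the wells of a group came from separate animals, so p-values measure only the spread between these wells.

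FOS proteins carry a leucine zipper and pair with JUN proteins to form the transcription factor AP-1, which binds short palindromic DNA sites. JUN proteins can also pair with one another. EGR proteins are zinc-finger transcription factors that bind GC-rich sites. Genes of these families are known as immediate-early genes because growth factors, stress and, in neurons, electrical activity raise many of them through kinase cascades without new protein synthesis. Fosl2 and Jund are usually less inducible, and Jund is widely expressed in resting cells.

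Expected counts, which estimate the reads of a gene, summed to between 18189610 and 22342283 per library. Levels are given as CPM, the count over the TMM-scaled library total in units of 1e-06 of that total. Where genes are compared with one another, and for marker genes, levels are the deposited FPKM. FPKM is divided by library size and transcript length, without TMM scaling, and ran lower relative to CPM in the medium libraries. For Junb, FPKM per CPM was 0.565 to 0.571 in normal libraries and 0.528 to 0.533 in those with USCs medium. The cell type label was only partly borne out by marker genes. Of 13 RGC markers, 9 including Pou4f1, Thy1, Sncg and Slc17a6 stayed below 1 FPKM in all libraries. Among these 9, Pou4f2 and Pou4f3, POU-domain factors of RGCs, had 0 counts in all 9 libraries. Rbpms, an RNA-binding protein used as an RGC marker, lay between 21.9 and 33.1 FPKM. The other markers above 1 FPKM were Isl1, at 4.62 to 9.36 FPKM, Nefl and Tubb3. Nefl was at 17.6 to 20.5 FPKM in normal libraries and 4.55 to 5.16 FPKM with USCs medium. Tubb3 was at 1.23 to 1.71 FPKM in aging libraries and 10.4 to 11.4 FPKM with USCs medium. The mesenchymal filament gene Vim reached 778 to 940 FPKM, and the epithelial keratin Krt8 reached 206 to 361 FPKM. The mesenchymal Col3a1, at 46.3 to 104 FPKM, and the epithelial Krt18, at 175 to 244 FPKM, and Krt19, at 148 to 244 FPKM, were also high. The remaining genes of those lists were low. The mesenchymal Col1a2, Thy1 and Acta2 and the epithelial Cdh1, Krt5 and Krt14 stayed below 1 FPKM in all libraries. Col1a1 reached at most 2.98 FPKM, Pdgfrb at most 1.04 FPKM and Epcam at most 1.6 FPKM.

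For 4 members that rise or fall in the comparisons below, the 250 bases before the transcription start are shown first. Control sites farther from the start lie outside these windows. The sequences are from RefSeq on GRCm38.p6 and run 5′ to 3′ on the strand of the gene. Capitals mark matches, on either strand, to the motifs that were searched. The Fos sequence covers chr12:85473640-85473889 on the plus strand, Junb chr8:84978749-84978998 on the minus strand, Jun chr4:95052223-95052472 on the minus strand, and Egr2 chr10:67537619-67537868 on the plus strand.
Fos: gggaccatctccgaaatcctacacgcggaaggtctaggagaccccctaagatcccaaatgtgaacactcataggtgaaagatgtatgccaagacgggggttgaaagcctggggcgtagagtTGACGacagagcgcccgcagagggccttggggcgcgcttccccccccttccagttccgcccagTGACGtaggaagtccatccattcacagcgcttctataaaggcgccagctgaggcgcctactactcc
Junb: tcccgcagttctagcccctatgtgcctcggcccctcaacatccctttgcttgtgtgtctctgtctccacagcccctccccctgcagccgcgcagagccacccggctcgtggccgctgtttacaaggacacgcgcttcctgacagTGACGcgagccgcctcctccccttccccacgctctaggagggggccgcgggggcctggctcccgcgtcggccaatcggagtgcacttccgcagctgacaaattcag
Jun: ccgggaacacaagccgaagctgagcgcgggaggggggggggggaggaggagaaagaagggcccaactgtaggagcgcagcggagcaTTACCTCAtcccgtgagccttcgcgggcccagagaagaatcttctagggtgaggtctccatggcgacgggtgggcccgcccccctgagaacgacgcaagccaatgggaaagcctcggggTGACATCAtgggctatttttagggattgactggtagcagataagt
Egr2: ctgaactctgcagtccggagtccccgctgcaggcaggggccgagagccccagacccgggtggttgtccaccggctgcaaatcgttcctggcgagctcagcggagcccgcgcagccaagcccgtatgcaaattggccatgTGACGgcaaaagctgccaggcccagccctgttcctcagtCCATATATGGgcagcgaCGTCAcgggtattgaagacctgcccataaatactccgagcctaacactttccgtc

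The motifs were the cAMP response element (CRE) TGACGTCA and its half-site TGACG, which every CRE contains, the AP-1 site TGANTCA, the Jun-type sites TGACATCA and TTACCTCA, the CArG box, which is the binding site of serum response factor (SRF), and the EGR site GCGNGGGCG. The Fos sequence held the half-site TGACG starting 129 and 66 bases before the start. Junb held it once, 106 bases before the start. The Jun sequence held TGACATCA 45 bases and TTACCTCA 164 bases before the start. Both were put into the search as Jun-type sites, so their presence in Jun is not an independent result. These 2 motifs occur in 2.93% and 0.728% of 32851 promoter windows of the same length. Egr2 has 5 annotated starts, and the sequence shown is the third, chosen after the matches were seen. It held a CArG box, CCATATATGG, 72 bases before the start, between half-sites at 111 and 55 bases. The CArG box occurs in 1.47% of all windows and the half-site in 17.8%. Promoter entries were found for 7 of the 10 genes, and not for Fosl1, Egr1 and Egr3. Fosb held a half-site and an EGR site, 60 and 50 bases before its start, and Fosl2 an EGR site 79 bases before its start. The EGR site occurs in 4.7% of all windows. The full CRE, found in 1.55% of all windows, and the AP-1 site, found in 6.75%, were not in any of the 7 genes' windows, and Jund held none of the motifs. These are matches of letters and not measured binding.

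Aging RGCs held less RNA of most AP-1 and EGR genes than normal RGCs. Of the 10 genes, 8 fell, none rose, and 2 did not pass the test. Over all 12145 genes tested, 23.0% fell and 23.6% rose, so that 46.5% passed the test in either direction. The 3 EGR genes, 2 of the 3 JUN genes and 3 of the 4 FOS genes were among those that fell. A gene was called changed at a Benjamini-Hochberg adjusted p under 0.05 over all genes tested, by edgeR's quasi-likelihood test, and a DEG in addition had at least a 2-fold change. The median log2 fold change of the 10 genes was -0.44, against 0.0 over all genes tested. The groups did not overlap in 7 of the 10 genes, all of them lower in aging RGCs, while 26.0% of all genes were lower without overlap. In RNA from whole wells, fewer cells of a type and less RNA per cell cannot be told apart.

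**Figure D1:**
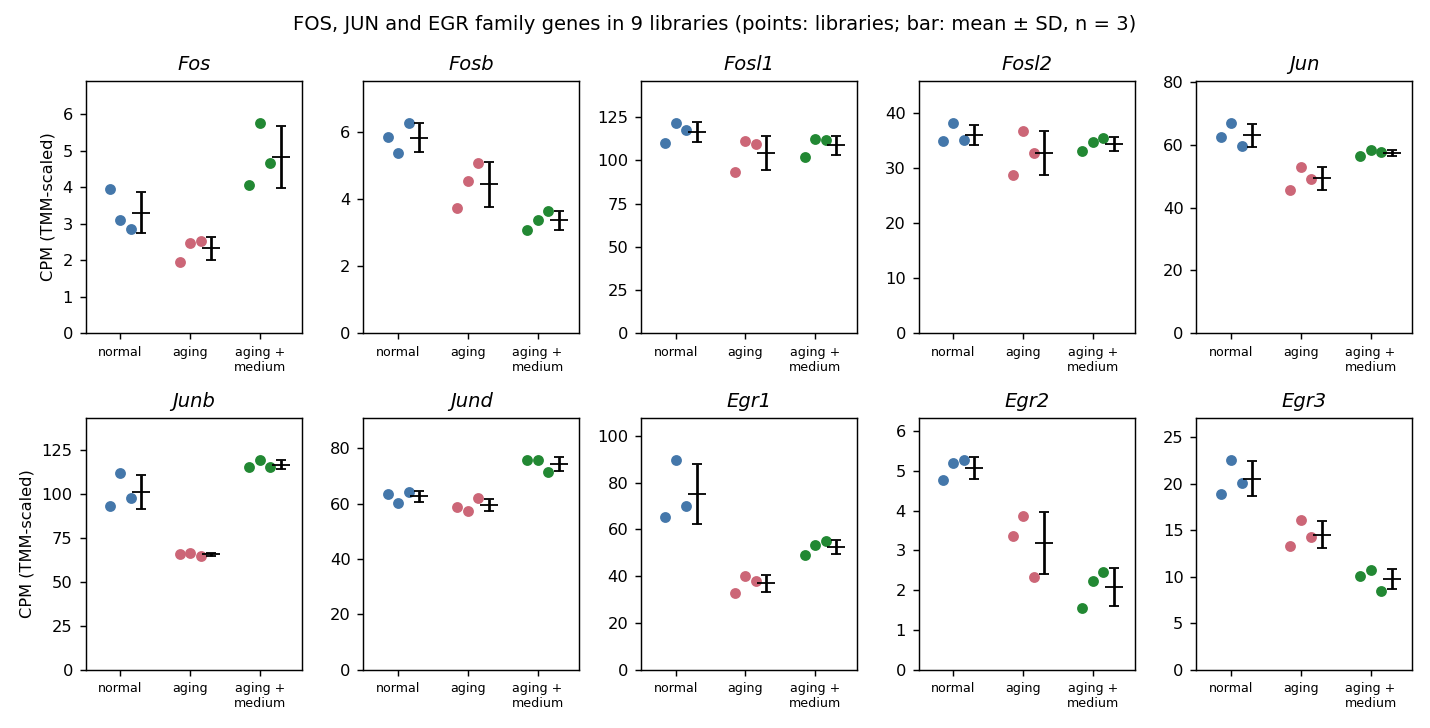
Level of each of the 10 genes in the 9 libraries, in TMM-scaled CPM on an axis from 0, with 1 point per library in replicate order and black bars for the mean ± SD (n = 3). The Junb libraries of aging RGCs, at 64.8 to 66.1 CPM, lie below all others of that gene, while the Egr3 levels are highest in normal RGCs and lowest in aging RGCs + USCs medium.

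Egr1 (Ensembl ENSMUSG00000038418, chromosome 18 from 34859823 to 34864984, plus strand, GRCm38) encodes the most studied EGR factor. Its level was 65.5, 89.8 and 69.9 CPM in the normal libraries, 32.9, 40.1 and 37.9 CPM in the aging libraries, and 49.2, 53.3 and 55.0 CPM in those with USCs medium. The 3 groups did not overlap, with normal RGCs highest and aging RGCs lowest. In aging against normal RGCs the log2 fold change was -1.02 (SE, standard error, 0.0832, edgeR adjusted p = 5.66e-11). Egr1 was the only one of the 10 genes to be a DEG in that comparison, where 1.56% of all genes were DEGs that fell. It passed the 2-fold line narrowly, and without normal replicate 2, its highest library, the log2 fold change was -0.87. Without aging replicate 1 it was -0.95.

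Egr3 (ENSMUSG00000033730, chromosome 14 from 70077203 to 70082614, plus strand) and Egr2 (ENSMUSG00000037868, chromosome 10 from 67535475 to 67542188, plus strand) encode related factors, of which Egr2 is known for its role in myelination and hindbrain patterning. Egr3 was at 18.9, 22.6 and 20.1 CPM in normal RGCs and at 13.3, 16.1 and 14.2 CPM in aging RGCs. The groups did not overlap, and the log2 fold change was -0.50 (SE 0.0955, edgeR adjusted p = 9.54e-05). Egr2 was at 4.76, 5.19 and 5.28 CPM in normal RGCs and at 3.35, 3.86 and 2.33 CPM in aging RGCs. Aging replicate 3 was the lowest of these 6 libraries. Egr2 had a log2 fold change of -0.67 (SE 0.195, edgeR adjusted p = 0.00563), and without aging replicate 3 it was -0.49 (adjusted p = 0.0595 by edgeR).

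Junb (ENSMUSG00000052837, chromosome 8 from 84974484 to 84978718, minus strand) encodes a JUN protein that is a weaker activator than Jun and can restrain cell division. Its exons share bases with Prdx2 on the other strand, and whether the counting used strand is not given in the sources used here. Junb was at 93.0, 111.9 and 97.5 CPM in normal RGCs and at 65.6, 66.1 and 64.8 CPM in aging RGCs, so the aging libraries stood close together and well below the others. Junb had a log2 fold change of -0.62 (SE 0.0524, edgeR adjusted p = 1.11e-10).

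Jun (ENSMUSG00000052684, chromosome 4 from 95049034 to 95052222, minus strand) encodes the main transactivating partner in AP-1 and a substrate of JNK kinases. Its level was 62.4, 66.9 and 59.7 CPM in normal RGCs and 45.6, 53.0 and 49.2 CPM in aging RGCs, again without overlap. It fell by 0.35 on the log2 scale (SE 0.0559, edgeR adjusted p = 6.87e-06). Jund (ENSMUSG00000071076, chromosome 8 from 70698949 to 70700616, plus strand) was at 63.4, 60.3 and 64.3 CPM in normal RGCs and 58.9, 57.5 and 61.9 CPM in aging RGCs. These ranges overlapped, with a log2 fold change of -0.08 (SE 0.0492, edgeR adjusted p = 0.212). Exons of Jun and Jund share bases with the antisense genes Junos and Gm11175, with the same reservation about strand as for Junb.

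Fos (ENSMUSG00000021250, chromosome 12 from 85473890 to 85477273, plus strand), the prototype immediate-early gene, was scarce, with 36 to 116 counts in a library. It was at 3.94, 3.10 and 2.86 CPM in normal RGCs and at 1.95, 2.47 and 2.53 CPM in aging RGCs. The groups were separate but lay near one another, and the log2 fold change was -0.51 (SE 0.209, edgeR adjusted p = 0.0449). Fosb (ENSMUSG00000003545, chromosome 7 from 19302696 to 19310051, minus strand), known for long-lived splice products in neurons, was at 5.85, 5.38 and 6.27 CPM in normal RGCs and at 3.73, 4.53 and 5.06 CPM in the aging libraries. Its log2 fold change was -0.39 (SE 0.158, edgeR adjusted p = 0.0445). Both calls were close to the threshold. Under DESeq2 the adjusted p was 0.0677 for Fos and 0.0772 for Fosb.

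Fosl1 (ENSMUSG00000024912, chromosome 19 from 5447547 to 5455946, plus strand) encodes Fra-1, an AP-1 subunit without a strong activation domain. It was at 110.2, 121.6 and 117.8 CPM in normal RGCs and at 93.1, 111.0 and 109.2 CPM in aging RGCs. Aging replicate 1 was low, and aging replicate 2 reached into the normal range. The log2 fold change was -0.16 (SE 0.0534, edgeR adjusted p = 0.0176). Fosl1 exons share bases with Ccdc85b on the other strand, and its expected count was not a whole number in any of the 9 libraries. Fosl2 (ENSMUSG00000029135, chromosome 5 from 32135801 to 32157842, plus strand) was at 34.8, 38.1 and 35.0 CPM in normal RGCs and at 28.8, 36.8 and 32.7 CPM in aging RGCs. The ranges overlapped, with a log2 fold change of -0.13 (SE 0.0716, edgeR adjusted p = 0.127).

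Aging replicate 1 had the lowest level of its group in Fos, Fosb, Fosl1, Fosl2, Jun, Egr1 and Egr3. Without that library 5 of the 10 genes fell rather than 8, and the adjusted p by edgeR was 0.161 for Fos, 0.196 for Fosb and 0.198 for Fosl1. Without normal replicate 1 the adjusted p of Fos by edgeR was 0.223 and that of Fosb 0.0879, without normal replicate 2 that of Fosl1 was 0.0624, and without normal replicate 3 that of Fosb was 0.136. Without aging replicate 2 it was 0.0627 for Fos and 0.0787 for Fosb, and Fosl2 passed, at a log2 fold change of -0.23 (edgeR adjusted p = 0.0144). The call for Fos was also lost without aging replicate 3 (edgeR adjusted p = 0.0568) and without medium replicate 3 (0.0504), which enters through the shared estimate of spread. Markers of macrophages moved with this comparison as well. The summed FPKM of 10 macrophage genes was 45.7 to 55.8 in normal libraries, 35.9 to 40.2 in aging libraries and 23.7 to 41.2 in those with USCs medium. Cd68, a lysosomal protein also made by other cells, gave the larger part, with 30.3 to 35.8 FPKM in normal and 33.4 to 35.5 FPKM in aging libraries. With USCs medium Cd68 was lower, at 22.3 to 27.2 FPKM. The lower sums of the aging libraries came from other genes. Lyz2, a lysozyme of myeloid cells, was at 7.95 to 17.8 FPKM in normal and 0.91 to 4.93 FPKM in aging libraries. The receptor gene Csf1r was at 0.86 to 2.01 FPKM against 0.12 to 0.97 FPKM, and Adgre1 at 0.29 to 1.35 FPKM against 0 to 0.03 FPKM. C1qb was at 0.51 to 0.86 FPKM in normal libraries and at 0 in every aging library, and C1qa, C1qb, C1qc and Ptprc were below 1 FPKM in all 9 libraries. The part of such cells in the AP-1 and EGR levels was not tested.

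With USCs medium the 10 genes divided. Compared with aging RGCs, 5 rose (Fos, Jun, Junb, Jund and Egr1), 3 fell (Fosb, Egr2 and Egr3), and Fosl1 and Fosl2 did not pass the test. Over all genes tested 27.1% rose and 26.0% fell, so that 53.1% passed in either direction and 51.1% of those that passed rose. That last share was 35.8% without TMM factors and 37.7% with limma on log2(FPKM + 1), and among the 10 genes the numbers rising and falling without TMM factors were again 5 and 3. The median log2 fold change of the 10 genes was 0.15, against -0.01 over all genes. The groups did not overlap in 7 of the 10 genes, and in 59.8% of all genes. This comparison shares the aging libraries with the one above, so a gene with low values in them tends to fall in the one and rise in the other.

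Fos was at 4.06, 5.76 and 4.66 CPM in aging RGCs + USCs medium, above all 3 aging libraries and all 3 normal libraries. The log2 fold change against aging RGCs was 1.05 (SE 0.201, edgeR adjusted p = 6.56e-05). It was the only DEG of the 10 genes in this comparison, where 1.24% of all genes were DEGs that rose. Its distance from the 2-fold line was small, and the log2 fold change was 0.95 without aging replicate 1 and 0.91 without medium replicate 2.

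Junb rose to 115.0, 119.2 and 115.0 CPM, above every normal library. The log2 fold change against aging RGCs was 0.83 (SE 0.0521, edgeR adjusted p = 1.51e-13). In Jund the level rose to 75.9, 75.9 and 71.4 CPM, also above every normal library, with a log2 fold change of 0.32 (SE 0.0488, edgeR adjusted p = 2.49e-06). Jun reached 56.4, 58.2 and 57.6 CPM, between the other 2 groups and overlapping neither. Its log2 fold change was 0.22 (SE 0.0568, edgeR adjusted p = 0.00182), and on log2(FPKM + 1) with limma it was 0.14 (adjusted p = 0.0899). All 3 JUN genes thus rose on counts.

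Egr1 rose by 0.51 on the log2 scale against aging RGCs (SE 0.0863, edgeR adjusted p = 1.54e-05) and remained below all normal libraries. Egr3 moved the other way, to 10.1, 10.7 and 8.50 CPM, which lay below all aging libraries. Its log2 fold change was -0.58 (SE 0.106, edgeR adjusted p = 4e-05). Egr2 was at 1.54, 2.23 and 2.46 CPM, with medium replicate 3 above aging replicate 3, so the groups overlapped. Egr2 had a log2 fold change of -0.61 (SE 0.222, edgeR adjusted p = 0.0223).

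The fall of Egr2 with the medium depended on the unit. FPKM averaged 1.13 ± 0.201 in aging RGCs and 1.06 ± 0.265 in aging RGCs + USCs medium (SD, n = 3), and limma on log2(FPKM + 1) gave a difference of -0.05 (adjusted p = 0.776). The FPKM value per CPM of Egr2 varied 2.01-fold over the 9 libraries, from 0.342 to 0.688, whereas it varied at most 1.39-fold for any other of the 10 genes. By edgeR the adjusted p of Egr2 was 0.062 without aging replicate 1, 0.145 without aging replicate 2 and 0.13 without medium replicate 1. Egr2 had 30 to 48 counts in each medium library.

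Fosb fell further with the medium, to 3.08, 3.37 and 3.64 CPM, just below the lowest aging library. The log2 fold change was -0.40 (SE 0.171, edgeR adjusted p = 0.0489). This call was close to the threshold, with an adjusted p of 0.0857 by DESeq2. It was lost on leaving out any one of 8 libraries, with adjusted p by edgeR of 0.0522 to 0.217, and it held only without aging replicate 1. Fosl1, at 102.1, 112.1 and 111.8 CPM, and Fosl2, at 33.0, 34.6 and 35.4 CPM, overlapped the aging libraries. Their log2 fold changes were 0.06 (SE 0.0539) and 0.07 (SE 0.0725), and both turned slightly negative without TMM factors.

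**Figure D2:**
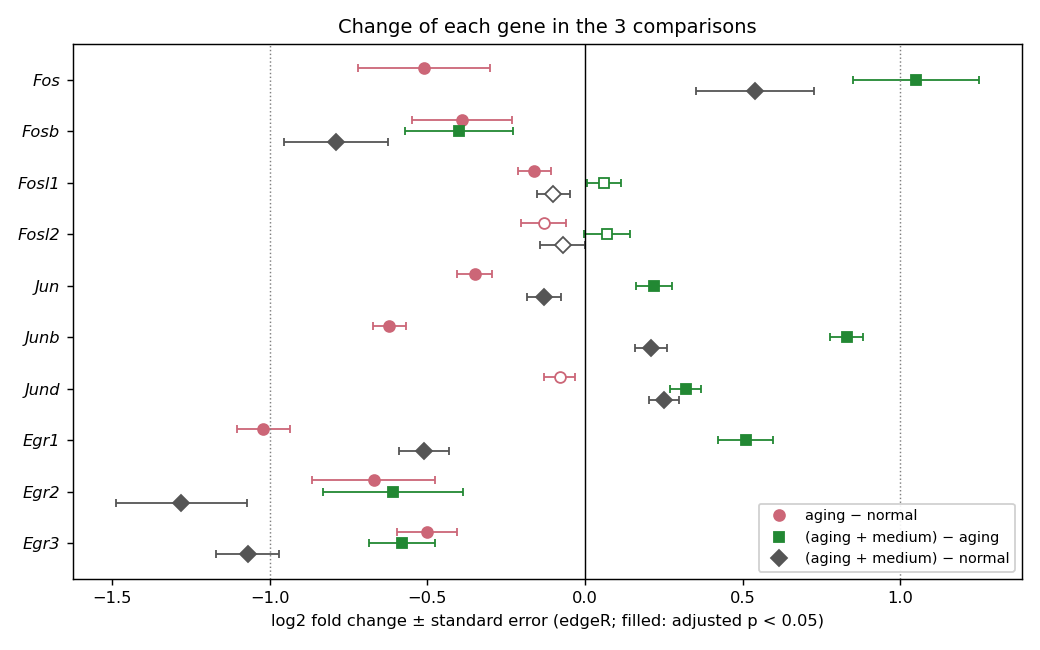
Log2 fold change ± standard error of the 10 genes (edgeR) in aging against normal RGCs (circles), aging RGCs + USCs medium against aging RGCs (squares) and aging RGCs + USCs medium against normal RGCs (diamonds). Filled symbols have an adjusted p under 0.05 and dotted lines mark a 2-fold change. Junb, Jun, Egr1 and Fos lie left of 0 for aging and right of it for the medium against aging, while Fosb, Egr2 and Egr3 lie left of 0 in all 3 comparisons.

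Compared with normal RGCs, aging RGCs + USCs medium ended with 3 of the 10 genes higher (Fos, Junb and Jund), 5 lower (Fosb, Jun, Egr1, Egr2 and Egr3) and 2 that did not pass the test (Fosl1 and Fosl2). Over all genes 30.6% were higher and 29.9% lower, and 60.5% passed in either direction. Of the genes that passed, 50.6% were higher, against 34.7% without TMM factors, a scaling that moved the median log2 fold change of all genes to -0.113. The groups did not overlap in 8 of the 10 genes and in 63.8% of all genes. Egr2 and Egr3 were the DEGs, at log2 fold changes of -1.28 (SE 0.207, edgeR adjusted p = 4.99e-06) and -1.07 (SE 0.101, edgeR adjusted p = 3.42e-10), where 5.24% of all genes were DEGs that were lower. Egr3 missed the 2-fold line without normal replicate 2 and without medium replicate 3. Egr1 was lower at -0.51 and Fosb at -0.79 on the log2 scale, with adjusted p by edgeR of 2.64e-06 and 0.000137.

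Fos was higher than in normal RGCs by 0.54 on the log2 scale (SE 0.188, edgeR adjusted p = 0.0144), and this call was lost without normal replicate 3 (adjusted p = 0.0696) and without medium replicate 2 (adjusted p = 0.116). Junb was higher by 0.21 (SE 0.0496, edgeR adjusted p = 0.000655) and Jund by 0.25 (SE 0.0481, edgeR adjusted p = 6.53e-05). The difference of Junb depended on the scaling, being 0.11 without TMM factors (adjusted p = 0.0605 by edgeR). Jun was lower at -0.13 (SE 0.0549, edgeR adjusted p = 0.0362). The adjusted p of Jun was 0.0615 by DESeq2, and by edgeR it was 0.0522 to 0.178 on leaving out normal replicate 1 or 2 or any one medium library. Fosl1 and Fosl2 had log2 fold changes of -0.10 (SE 0.0531, edgeR adjusted p = 0.106) and -0.07 (SE 0.071, edgeR adjusted p = 0.434). Without TMM factors both passed, Fosl1 at -0.20 (edgeR adjusted p = 0.00188) and Fosl2 at -0.17 (edgeR adjusted p = 0.0445), and Fosl1 passed without normal replicate 1 (edgeR adjusted p = 0.0379).

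Per length, Fosl1, Junb and Jund were the most abundant of the 10 genes in each group. In normal RGCs the mean FPKM was 64.8 for Fosl1, 57.3 for Junb, 38.7 for Jund, 21.9 for Egr1, 20.3 for Jun, 5.97 for Egr3, 5.66 for Fosl2, 2.20 for Egr2, 1.88 for Fosb and 1.61 for Fos. Ranges of Fosl1 and Junb overlapped there, as did those of Egr1 and Jun and those of Egr3 and Fosl2, of Egr2 and Fosb and of Fosb and Fos. In aging RGCs Fosl1 led at 57.2 FPKM, Junb at 36.7 and Jund at 36.1 FPKM overlapped, and Fos, at 1.11 FPKM, had the lowest mean with a range that overlapped that of Egr2 at 1.13 FPKM. With USCs medium Junb led at 61.7 FPKM and its range lay above that of Fosl1 at 56.2 FPKM. Fosb then had the lowest mean, 0.97 FPKM, with a range that overlapped that of Egr2 at 1.06 FPKM, and Fos stood at 2.19 FPKM, overlapping Egr3 at 2.71 FPKM.

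Shares within a family were compared in FPKM. Fosl1 gave 87.6 ± 0.701% of the summed FOS FPKM in normal RGCs, 88.3 ± 0.559% in aging RGCs and 87.3 ± 0.396% with USCs medium (SD, n = 3). Junb gave 49.2 ± 2.48%, 41.5 ± 0.86% and 50.7 ± 0.477% of the JUN sum in the same order, and its aging values did not overlap the others. Jund took the complementary course, with 33.3 ± 2.53%, 40.8 ± 1.35% and 35.1 ± 0.751%. The share of Egr1 in the EGR sum was 72.6 ± 1.47%, 67.1 ± 2.76% and 79.5 ± 0.945%, without overlap between groups. Egr3 gave 20.1 ± 2.15%, 25.8 ± 1.86% and 14.7 ± 1.81% of it. These shares are descriptions without a test.

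**Figure D3:**
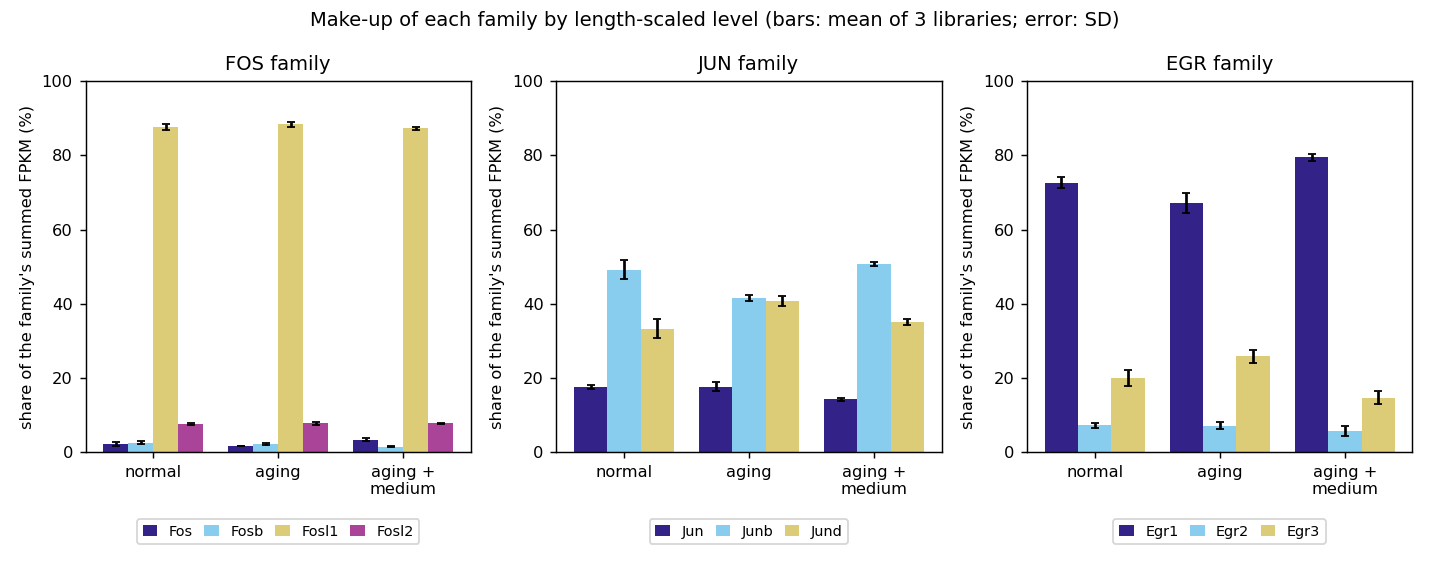
Share of each gene in the summed FPKM of its family, in percent on an axis from 0 to 100, for each of the 3 groups (bars, mean of 3 libraries; error bars, SD). Fosl1 makes up 87.3% to 88.3% of FOS in each group, while Junb and Egr1 are at their lowest shares in aging RGCs.

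Summed over each family, JUN RNA was 116.3 ± 5.38 FPKM in normal RGCs, 88.4 ± 0.974 FPKM in aging RGCs and 121.8 ± 2.07 FPKM with USCs medium (SD, n = 3). The EGR sum was 30.0 ± 5.36, 15.8 ± 1.58 and 18.4 ± 0.543 FPKM in that order, so both groups treated with D-galactose lay below the lowest normal library at 25.8 FPKM. The FOS sum was 73.9 ± 3.7, 64.8 ± 5.87 and 64.4 ± 3.34 FPKM. These sums are without TMM scaling, which sets the medium libraries lower against the other groups than CPM does. Ratios within a library were taken in CPM, without a length correction. Fos to Fosb was 0.457 to 0.674 in the normal libraries, 0.5 to 0.545 in the aging libraries and 1.28 to 1.71 with USCs medium. Egr1 to Egr3 was 3.46 to 3.98, 2.48 to 2.66 and 4.89 to 6.47. Junb to Jun was 1.49 to 1.67, 1.25 to 1.44 and 2.0 to 2.05. In each of these 3 ratios the medium libraries lay above both other groups. Junb to Jund did not follow them, at 1.47 to 1.86, 1.05 to 1.15 and 1.52 to 1.61, where the medium libraries lay within the normal range and above the aging libraries.

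Across the 9 libraries the log2 CPM of Jun was most like that of Egr1 among the 10 genes (Pearson r = 0.96). Fosl1 was most like Fosl2 (r = 0.91), Fosb most like Egr3 (r = 0.88), and Fos most like Jund (r = 0.86) and Junb (r = 0.84). Jund had r = -0.70 with both Egr2 and Egr3. Among all other genes tested, those most like Junb were Eif2s2 (r = 0.997), Rars (r = 0.996) and Bcat1 (r = 0.994). Krt18 (r = 0.989), Ccser2 (r = 0.983) and Ube2w (r = 0.983) were most like Egr1, and Nrros (r = 0.91), Hoxa13 (r = 0.908) and Paqr3 (r = 0.908) most like Fosl1. These last 3 genes were low, with group means of 0.69 to 1.01 CPM for Nrros, 2.1 to 4.5 CPM for Hoxa13 and 2.96 to 5.3 CPM for Paqr3. The 9 points fall into 3 treatment groups and share their libraries, so the r values describe likeness only.

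Genes of related lists were counted in the same way, and each count is to be read beside the share of all genes that passed, which was 23.0% lower and 23.6% higher in aging against normal RGCs, 26.0% and 27.1% in the medium against aging RGCs, and 29.9% and 30.6% in the medium against normal RGCs. Of 14 leucine zipper partners of AP-1, 10 could be tested, and in aging against normal RGCs 5 fell and none rose, with a median log2 fold change of -0.20 against 0.0 over all genes. Jdp2, which pairs with JUN proteins and represses AP-1 sites, was at 38.5 CPM in normal RGCs and 17.3 CPM in aging RGCs, a log2 fold change of -1.15 (SE 0.0757, edgeR adjusted p = 6.36e-13). The stress-induced factor Atf3 fell from 13.8 to 7.31 CPM, which is a log2 fold change of -0.92 (SE 0.114, edgeR adjusted p = 1.49e-07). Small MAF proteins, which lack an activation domain, fell by less, Maff by 0.26 and Mafk by 0.20 on the log2 scale, the latter with an edgeR adjusted p of 0.0895 without normal replicate 2. With USCs medium against aging RGCs 3 of the 10 rose and 1 fell. Jdp2 rose to 26.4 CPM and Atf3 to 10.4 CPM, at log2 fold changes of 0.60 and 0.51, and Mafk by 0.21 (0.14 without TMM factors, edgeR adjusted p = 0.0682), while Atf7 fell by 0.13 on the log2 scale. The fall of Atf7 was lost without aging replicate 3 (adjusted p = 0.0706 by edgeR) and without medium replicate 2 (adjusted p = 0.0647). Against normal RGCs 5 of the 10 were lower with the medium and none higher, Jdp2 at -0.54 and Atf3 at -0.41.

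NAB proteins bind EGR factors and repress their activity. Nab1 and Nab2 both fell in aging against normal RGCs, by 0.18 and 0.15 on the log2 scale, with adjusted p by edgeR of 0.000804 and 0.0318. That of Nab2 was 0.0506 by DESeq2 and, by edgeR, 0.117 without normal replicate 3, 0.118 without aging replicate 1 and 0.0876 without aging replicate 3. With USCs medium Nab2 fell further, from 45.0 to 35.3 CPM, which is a log2 fold change of -0.35 (SE 0.0592, edgeR adjusted p = 1.44e-05), and Nab1 did not pass the test. Egr4, the remaining EGR relative, was filtered out for low counts.

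Immediate-early genes outside the 2 families moved in both directions. In aging against normal RGCs 12 of 26 tested genes fell, 6 rose and 8 did not pass the test, with a median log2 fold change of -0.26, where 23.0% of all genes fell and 23.6% rose. Ptgs2, the inducible cyclooxygenase, was at 541 CPM in normal RGCs and 199 CPM in aging RGCs, a log2 fold change of -1.44 (SE 0.0411, edgeR adjusted p = 4.48e-21). Rhob, a small GTPase induced by stress, fell from 95.4 to 41.0 CPM, which is a log2 fold change of -1.22 (SE 0.0535, edgeR adjusted p = 6.65e-17). Ccn2, a matrix-associated growth factor also called CTGF, rose from 3.88 to 8.24 CPM, and Npas4, an activity-dependent neuronal factor, rose from 0.794 to 1.56 CPM. The call for Npas4 rested on 10 to 34 counts per normal or aging library. Its adjusted p was 0.0301 by edgeR and 0.0506 by DESeq2. By edgeR the call was lost without normal replicate 2 (adjusted p = 0.149), aging replicate 1 (0.118) or aging replicate 3 (0.1).

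With USCs medium 10 of these 26 genes rose against aging RGCs, 7 fell and 9 did not pass the test, where 27.1% of all genes rose and 26.0% fell. Rhob returned to 89.8 CPM, which is a log2 fold change of 1.13, and Zfp36, which promotes decay of inflammatory mRNAs, rose from 22.8 to 51.1 CPM, which is a log2 fold change of 1.16 (SE 0.0578, edgeR adjusted p = 9.81e-16). Ccn2 rose again, to 19.2 CPM, and Npas4 fell to 0.623 CPM. Against normal RGCs 10 of the 26 were lower with the medium and 7 higher. Ptgs2, at 155 CPM, had a log2 fold change of -1.80 in that comparison. It was also lower than in aging RGCs, at -0.36 (edgeR adjusted p = 5.83e-08). Against normal RGCs the nuclear receptor gene Nr4a2 was lower at -0.90 and the antiproliferative gene Btg2 at -0.76, while Ccn2 was higher by 2.31.

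Of 20 genes commonly listed as AP-1 targets, 9 fell, 4 rose and 7 did not pass the test in aging against normal RGCs, where 23.0% of all genes fell and 23.6% rose. The heme-degrading enzyme gene Hmox1 fell by 0.79 and the angiogenic growth factor gene Vegfa by 0.65 on the log2 scale, and Mmp10 rose by 0.56. With USCs medium 10 fell, 4 rose and 6 did not pass the test against aging RGCs, where 26.0% of all genes fell and 27.1% rose. The 4 with the largest changes were matrix metalloproteinases, enzymes that cleave extracellular matrix. Mmp3 was at 27.5, 30.7 and 28.4 CPM in aging RGCs and at 1.49, 1.09 and 0.615 CPM with USCs medium, a log2 fold change of -4.75. Mmp9, Mmp10 and Mmp13 had log2 fold changes of -3.07, -2.33 and -2.24. Against normal RGCs the same 4 genes were lower with the medium, at -4.87, -2.98, -1.77 and -2.71 in the same order. In that comparison 12 of the 20 genes were lower and 4 higher (29.9% and 30.6% of all genes), with a median log2 fold change of -0.32 against -0.01 over all genes.

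**Figure D4:**
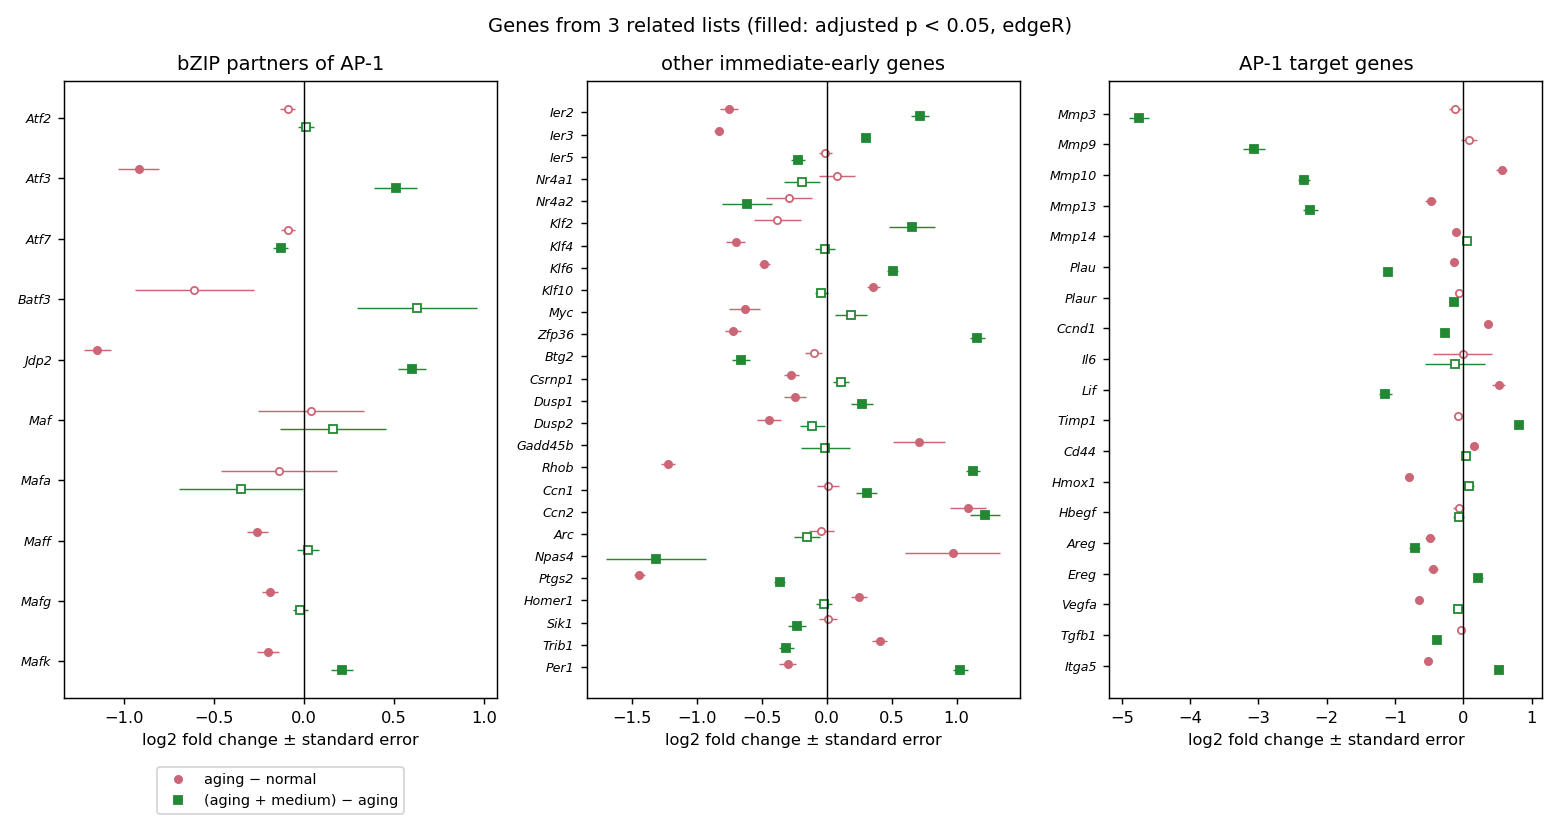
Log2 fold change ± standard error of genes from 3 related lists, in aging against normal RGCs (circles) and aging RGCs + USCs medium against aging RGCs (squares), with filled symbols for an adjusted p under 0.05 (edgeR). Jdp2 and Atf3 lie left of 0 for aging and right of it for the medium, and Mmp3, at -4.75, lies farthest to the left among the AP-1 targets.

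Among SRF, its cofactors of the ternary complex factor and MRTF families, and Creb1, which act on CArG boxes and CREs, 2 of 7 genes fell and 1 rose in aging against normal RGCs. Creb1, which binds the CRE, fell by 0.33 on the log2 scale (SE 0.0422, edgeR adjusted p = 3.04e-07) and Elk4, a ternary complex factor, rose by 0.29. With USCs medium against aging RGCs 2 rose and 4 fell. Creb1 rose by 0.28 and Srf by 0.24, and Elk4 and Mrtfb fell by 0.30 each on the log2 scale. With limma on log2(FPKM + 1) neither Creb1 nor Srf passed the test, with adjusted p of 0.0691 and 0.334. Against normal RGCs 1 was higher with the medium, Srf by 0.30, and 4 were lower, among them Elk1 at -0.29.

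The MAP kinases and their upstream kinases, which carry growth factor and stress signals to these promoters, passed the test about as often as all genes in aging against normal RGCs. Of 16 tested genes 4 rose and 4 fell, with a median log2 fold change of 0.03, where 23.6% of all genes rose and 23.0% fell. Mapk11, which encodes p38 beta, fell by 0.40, Map2k6, which encodes a p38 kinase, by 0.38 and Mapk9, which encodes JNK2, by 0.37 on the log2 scale, while Map2k2, which encodes MEK2, rose by 0.30. With USCs medium against aging RGCs 6 rose and 5 fell, and 3 rose without TMM factors. Mapk11 rose by 0.41, Map2k6 fell by 0.38 again, and Mapk3, which encodes ERK1, and Map2k3 fell by 0.34 each. Against normal RGCs 6 were higher with the medium, or 2 without TMM factors, and 4 were lower. Map2k6 was lower at -0.75 (SE 0.0557, edgeR adjusted p = 2.86e-12). Mapk10, the neuronal JNK3 gene, went from 1.15 to 0.439 CPM. It had only 15 to 32 counts per normal library and 5 to 12 per medium library. The call for Mapk10 was lost without normal replicate 3 (adjusted p = 0.0637 by edgeR) or medium replicate 1 (adjusted p = 0.0507).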

How the data were processed

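RNA of 9 wells was enriched with oligo(dT) beads and sequenced. The authors deposited for each gene an expected count, which estimates its reads and is unnormalized, and FPKM, in which transcript length and library size are divided out. The labels name genome build mm10. The aligner and the counting program are not stated in the sources used here. Positions were taken from GENCODE M21 (GRCm38).

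Expected counts were rounded, since 6.92% to 7.38% of the values had decimals. They were tested with edgeR 4.0.16 in R 4.3.3 (filterByExpr, TMM factors, 1 mean per group over all 9 libraries, 6 residual degrees of freedom, quasi-likelihood F test, Benjamini-Hochberg adjustment over 12145 genes). Standard errors were the log2 fold change over the root of F. The fit was run on counts simulated with the same spread for every gene, so it was not checked for spread that differs between genes. Alternatives were no TMM factors, upper-quartile factors, DESeq2 1.42.0, no low-count filter, a block for the replicate number, a fit to only the groups compared, limma 3.58.1 on FPKM with pseudocounts of 1 and 0.1, and each library left out. Genes of the related lists were run through these after their values were seen. Besides the 10 members, up to 4 genes that passed the test were named per list and comparison, those with the largest absolute log2 fold change, and the 3 genes most alike to the most abundant member of each family. One gene of the AP-1 target list is counted but not otherwise reported here. The members and lists were chosen with earlier results of these data known.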

Additional observations from a re-analysis of the deposited data

How the results depend on the processing

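The number of the 10 genes that fell in aging against normal RGCs was 8, and 5 to 8 on leaving out 1 library. The number that fell with USCs medium against aging RGCs was 3, and 1 to 2 on leaving out 1 library, so that the count of 3 was lost whichever library was removed (1 without aging replicate 2 or medium replicate 1). Of the 10, the number past a 2-fold change was 1 in each of these comparisons and 0 to 1 on leaving out 1 library. It was 0 for aging against normal RGCs with limma on log2(FPKM + 1), and 0 for the medium against aging RGCs without TMM factors and with limma at either pseudocount. For the medium against normal RGCs it was 2, with 1 to 2 on leaving out 1 library, 0 with limma at a pseudocount of 1 and 1 at 0.1, where 1 rather than 3 genes were higher. In the medium against aging RGCs, Fosl1 turned to -0.0218 without TMM factors, -0.0235 and -0.0239 with limma at pseudocounts 1 and 0.1, and -0.0169 without aging replicate 1 (-0.0169 to 0.105 on leaving out 1 library). Fosl2 turned to -0.00978, -0.00284, -0.00246 and -0.0125 under the same alternatives (-0.0125 to 0.163 on leaving out 1 library). No other of the 10 genes changed direction in any comparison under the alternatives run. DEGs over all genes numbered 322, 661 and 816 in the 3 comparisons, and 66, 129 and 229 with limma on log2(FPKM + 1), whose pseudocount compresses low values by construction.

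Replicate numbers gave no sign of pairing the libraries, which does not settle how the wells were handled. Deviations from the group means correlated at -0.0322 to 0.045 between same-numbered libraries. Between unlike-numbered libraries of different groups they correlated at -0.0691 to 0.0691. The best match had the same number in 4 of 18 cases. With the replicate number as a block, 8 genes fell in aging RGCs, 5 rose and 3 fell with the medium against aging RGCs, and 3 were higher and 6 lower than in normal RGCs, where Fosl1 also passed (log2 fold change -0.10, adjusted p = 0.0352 by edgeR). Counts of 30 to 135 per library for Fos, Fosb and Egr2 limit the precision of those 3 genes.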
